A study of Mus musculus with 11 samples.

Results

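The cAMP, PKA and CREB signalling machinery comprised 38 genes, chosen by name for their role: adenylate cyclases, the stimulatory G protein alpha subunit, protein kinase A (PKA) subunits, Epac exchange factors, phosphodiesterases, CREB family factors, their co-activators and salt-inducible kinases. A gene was measured by the probe sets that the array's annotation gave to that symbol alone, and the probe set with the highest mean was taken where there were several. By this rule 34 of the 38 genes were found among the 18755 genes on the array, and Adcy3, Prkaca, Rapgef4 and Sik2 were not analysed here. All groups were wild-type C57Bl/6 macrophages grown from bone marrow for 1 week in medium with 5 ng/ml mCSF, a macrophage growth factor, replated and used after 24 h. The 4 untreated arrays had no further agent, the 3 LPS arrays came from cells given LPS (lipopolysaccharide from the bacterial outer membrane) at 100 ng/ml for 1 h, and the 4 LPS plus PGE arrays from cells given that LPS dose together with 10 µM prostaglandin E (PGE) for 1 h. No group received PGE alone, so each PGE difference is one in the presence of LPS, and the mRNA was read at 1 time point. Nothing in the labels ties a replicate to its own mouse or culture. A p-value here therefore reflects the spread between the arrays of a group, which may be technical, and precision is limited by the few arrays.

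Prostaglandin E binds receptors that couple to the stimulatory G protein, whose alpha subunit activates adenylate cyclases to make cyclic AMP (cAMP). cAMP releases the catalytic subunits of PKA from their regulatory subunits and activates the Epac exchange factors, and phosphodiesterases break it down. PKA phosphorylates CREB family factors, which recruit the acetyltransferases CBP and p300, and it inhibits salt-inducible kinases, which otherwise hold the CRTC co-activators in the cytoplasm. In macrophages this pathway is known for reshaping the response to LPS.

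Values are log2 array signals as deposited, on which a step of 1 means a 2-fold change. The 13 macrophage markers measured all lay above the median of all genes in each group, and their mean over the list ran from 11.43 to 11.61 over the 11 arrays. Of the other cell types' markers, 1 of 9 neutrophil, 0 of 7 mast cell and basophil, 0 of 3 erythroid and 0 of 8 fibroblast genes lay above that median in each group, as did 1 of 7 T and NK cell genes (Cd4), 2 of 6 B cell genes and 3 to 4 of 9 dendritic cell genes, the highest of them H2-Ab1. No array stood apart: arrays of the same group correlated at 0.996 to 0.998 over all genes and arrays of different groups at 0.980 to 0.993.

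In the deposited values LPS alone changed fewer genes of the machinery than LPS with PGE did, and also fewer of all genes. In LPS against untreated cells 4 of 34 genes (11.8%) passed at an adjusted p under 0.05 (limma, Benjamini-Hochberg over all genes), beside 13.2% of all genes. The phosphodiesterase genes Pde4b and Pde4d rose (6.55% of all genes rose), and the exchange factor gene Rapgef3 and the kinase gene Sik1 fell (6.69% of all genes fell). The share of the machinery called was thus close to the share of all genes. When every array was scaled to the same median over all probe sets, 12 genes passed and 11 of them rose. That scaling moved the median change of all genes from -0.015 to 0.100. The share of all calls that were rises moved from 49.5% to 81.8%. In bulk RNA, fewer cells of a type and less RNA per cell cannot be told apart.

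In LPS plus PGE against untreated cells 14 of 34 genes (41.2%) passed, beside 31.7% of all genes. Of these, 11 rose (13.8% of all genes rose): Adcy4, Adcy8, Pde3a, Pde3b, Pde4b, Pde4c, Pde4d, Pde7b, Creb1, Crem and Sik1. The other 3 fell (17.9% of all genes fell): Rapgef3, Crtc1 and Ep300. With equal array medians 15 genes rose and 3 fell, and with cyclic loess normalization 13 rose and 1 fell. Of all genes' calls in this comparison, 43.5% were rises as deposited, 68% with equal array medians, 54.4% with cyclic loess and 54.1% with quantile normalization.

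In LPS plus PGE against LPS, the comparison that adds PGE, 12 of 34 genes (35.3%) passed, beside 24.7% of all genes. Rises were called for 9 (11.9% of all genes rose), namely Adcy4, Adcy5, Adcy8, Pde3a, Pde3b, Pde4b, Pde4c, Crem and Sik1, and falls for 3 (12.9% of all genes fell), namely Rapgef3, Pde4a and Ep300. The median change of the 34 genes was 0.08, against -0.005 for all genes, and 2 of them, Sik1 and Crem, changed by 2-fold or more. With cyclic loess or quantile normalization 8 genes passed, 7 up and 1 down, while all genes' calls fell to 11.3% and 12.6%. With equal array medians the same number of the machinery's genes rose and fell as in the deposited values, and 37.5% of all genes' calls were rises against 47.9%. The 3 comparisons share arrays, so they are given side by side and not as independent evidence of each other.

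**Figure D1:**
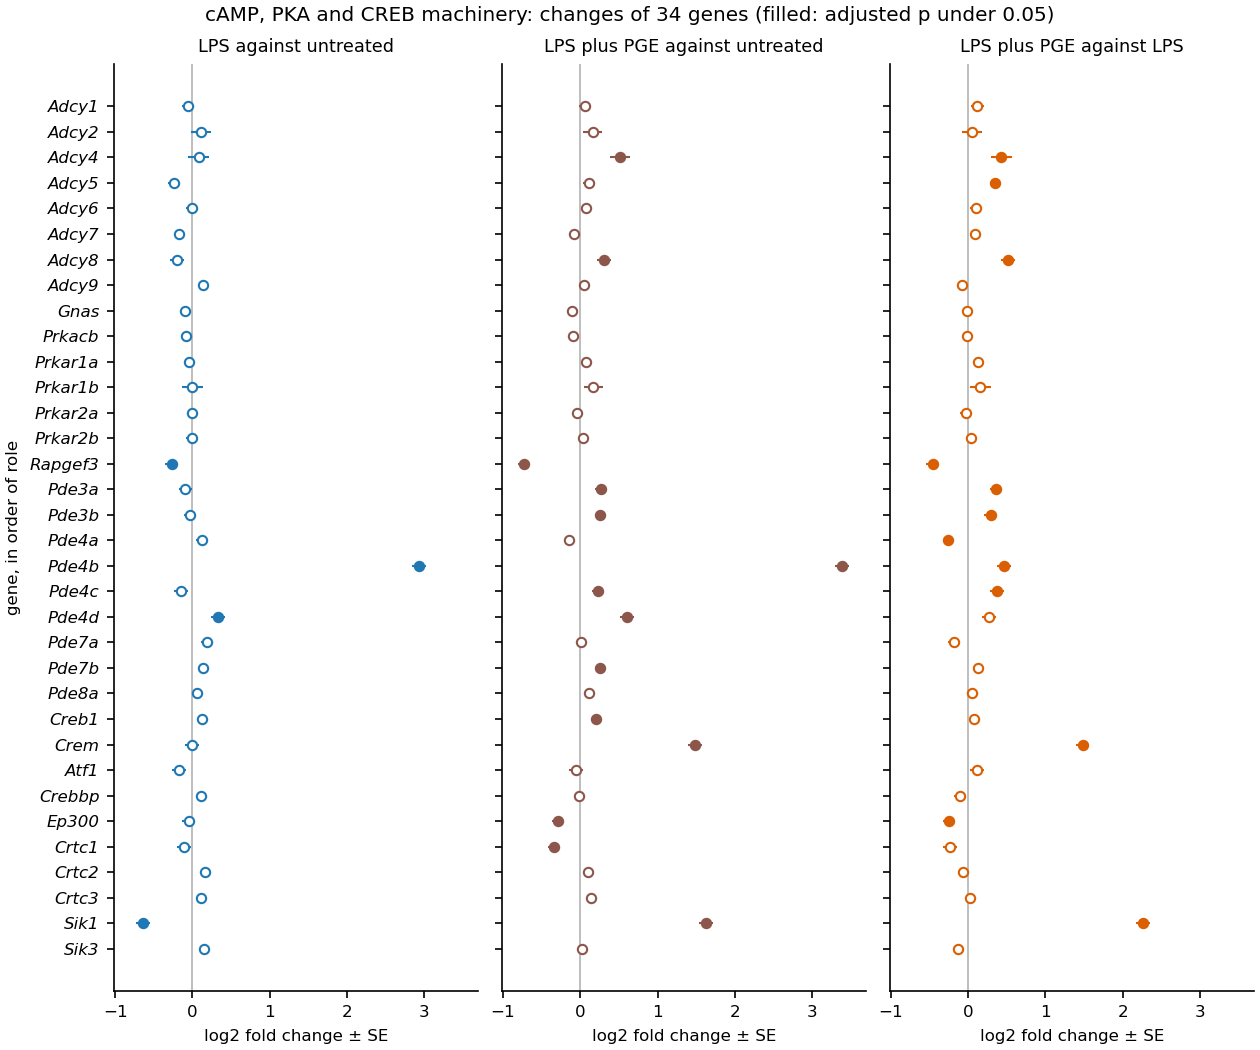
Log2 fold change (x axis) of the 34 measured genes of the machinery, in order of role (y axis), in each of the 3 comparisons; bars are standard errors and filled points passed at an adjusted p under 0.05. Pde4b stands out in both comparisons with untreated cells, at 2.93 and 3.39, and Sik1 and Crem in LPS plus PGE against LPS, at 2.26 and 1.48.

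Among the adenylate cyclases, the enzymes that make cAMP, 8 of 9 genes were measured. None passed in LPS against untreated, where their changes ran from -0.24 (Adcy5) to 0.13 (Adcy9) and all 34 genes' from -0.64 to 2.93; Adcy5 had an adjusted p of 0.0554 and Adcy7 of 0.0521 (limma). Adcy7, described in macrophages and other blood cells, had group means of 11.04 ± 0.04 untreated, 10.87 ± 0.02 with LPS and 10.96 ± 0.03 with LPS plus PGE (SD, n = 4, 3 and 4). Its 3 groups did not overlap, but none of its differences passed; that of LPS against untreated, -0.17, did with trended and robust variance and with dim genes left out (adjusted p = 0.00682 and 0.0105).

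Adcy4 was one of 3 cyclase genes that rose in LPS plus PGE against LPS. Its values were 4.38, 4.69, 4.91 and 4.58 in untreated cells, 4.66, 4.95 and 4.54 with LPS, and 5.18, 5.09, 5.37 and 4.94 with LPS plus PGE. All LPS plus PGE arrays lay above every untreated array, and the lowest of them lay just under the highest LPS array. Adcy4 rose by 0.51 ± 0.13 (SE) against untreated (limma, adjusted p = 0.0101) and by 0.43 ± 0.14 against LPS (adjusted p = 0.0409). The call against LPS was lost under 10 of 21 alternatives: quantile normalization, cyclic loess (0.31, adjusted p = 0.165), a required change of at least 0.5, and without untreated replicate 2 or 4, LPS replicate 1 or 3, or LPS plus PGE replicate 1, 2 or 3, which gave 0.34 to 0.44. The call against untreated held under all 21.

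Adcy8, which encodes a calcium-stimulated cyclase, had values of 3.63, 3.82, 3.59 and 3.68 in untreated cells, 3.57, 3.43 and 3.42 with LPS, and 4.19, 4.07, 3.84 and 3.87 with LPS plus PGE. The LPS arrays were lowest and the LPS plus PGE arrays highest, with no overlap between any of the groups. Adcy8 rose by 0.52 ± 0.09 against LPS (limma, adjusted p = 0.00296) and by 0.31 ± 0.09 against untreated (adjusted p = 0.016), and its difference of -0.20 ± 0.09 in LPS against untreated did not pass (adjusted p = 0.189). Adcy5 rose by 0.35 ± 0.07 against LPS (adjusted p = 0.00687), from 3.75 to 4.10, but not against its untreated mean of 3.99 (adjusted p = 0.227).

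The 3 cyclase genes that rose were dim on the array. The lower quartile of all genes was 3.84 in the LPS arrays, and the means of Adcy5 and Adcy8 there lay below it, at 3.75 and 3.48, while Adcy4 lay below the median of 5.97. In the LPS plus PGE arrays dim genes in general were higher: with all genes divided into 10 equal bands by mean level, the band of Adcy5 and Adcy8 had a median change against LPS of 0.19 and 25.6% of its genes rose, and the band of Adcy4 had a median of 0.05 and 19% rose. Less these medians the changes were 0.16 for Adcy5, 0.32 for Adcy8 and 0.37 for Adcy4. Under cyclic loess the call for Adcy5 against LPS was lost (0.21, adjusted p = 0.115) and that for Adcy8 kept (0.38, adjusted p = 0.0221). The call for Adcy8 against untreated was lost there (0.21, adjusted p = 0.11), in a band with a median change of 0.18 against untreated.

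The remaining cyclases moved little. Adcy1, Adcy2, Adcy6 and Adcy9 had changes of -0.08 to 0.16 in both comparisons of LPS plus PGE, and none passed in the deposited values. In LPS plus PGE against untreated, Adcy2 passed with quantile normalization (0.35, limma, adjusted p = 0.0356) and Adcy9 under cyclic loess (0.19, adjusted p = 0.0129). Adcy9 also passed in LPS against untreated with equal array medians (0.24, adjusted p = 0.0189). Adcy1 is a calcium-stimulated cyclase known from neurons, and its group means were 3.48, 3.41 and 3.54. Adcy2, activated by G protein beta-gamma subunits, had 5.95, 6.06 and 6.11, and Adcy6, inhibited by calcium, had 4.25, 4.24 and 4.33. Adcy9, a widely expressed cyclase that is little affected by forskolin, had 8.34, 8.47 and 8.39.

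The measured transcripts of the core of the pathway, the G protein subunit and the PKA subunits, did not pass in any comparison of the deposited values. Among them Prkar1a alone passed under some alternatives. The catalytic subunit gene Prkaca was not analysed. Gnas, the stimulatory alpha subunit, had means of 9.81 ± 0.04 untreated, 9.71 ± 0.07 with LPS and 9.70 ± 0.07 with LPS plus PGE (SD), and its change against LPS was -0.01, with a 95% interval from -0.14 to 0.12. Its other probe set, at 8.57, 8.46 and 8.78, did not pass either. The PKA catalytic subunit gene Prkacb had 10.99 ± 0.02, 10.91 ± 0.06 and 10.89 ± 0.07, a change against LPS of -0.02 (-0.15 to 0.10).

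The 4 regulatory subunit genes, whose products hold the catalytic subunits inactive, changed by -0.03 to 0.16 in LPS plus PGE against LPS. Prkar1a, the type I alpha subunit, was 11.07, 11.02 and 11.15, and although the LPS plus PGE arrays did not overlap the LPS arrays, the change of 0.13 had an adjusted p of 0.11 (limma). It passed with trended and robust variance (adjusted p = 0.0364), and its change against untreated passed with equal array medians and under cyclic loess (0.16 in both, adjusted p = 0.0414 and 0.0499). The type I beta subunit gene Prkar1b was 5.11, 5.12 and 5.28, with the widest spread of the 4 in the LPS arrays (SD 0.30). The type II genes Prkar2a (9.32, 9.32 and 9.29) and Prkar2b (8.18, 8.17 and 8.20) had intervals against LPS of -0.18 to 0.11 and -0.11 to 0.18.

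Prkar1a was also the one gene of the machinery with a complete cAMP response element in a promoter window. This element, the site that CREB family factors bind, was searched as TGACGTCA, and its half-site as TGACG on both strands (CGTCA on the printed strand), in RefSeq windows of 300 bases from 250 before to 50 after each annotated start on GRCm38.p6. Of the 38 genes 30 had a window; Adcy6, Adcy8, Pde3a, Pde3b, Pde7a, Crem, Crtc2 and Sik1 had no entry. The complete element was in 1 of 30 genes (3.33%), beside 2.03% of 27025 genes with a window. The half-site, which every complete element contains, was in 15 of 30 genes (50%), beside 23% of all genes, and in 35.2% of the 54 windows of these genes, beside 20.8% of all 32851 windows. These matches are descriptions of letters in the windows. Of 6 Prkar1a windows, 2 overlapping ones held the complete element, which was 1 and the same site. It began at base -49 of 1 start and at base 38, after the start, of the other. The 250 bases before the former start are shown at chr11:109650699-109650948 (plus strand), with the half-site and the complete element in capitals:
Prkar1a: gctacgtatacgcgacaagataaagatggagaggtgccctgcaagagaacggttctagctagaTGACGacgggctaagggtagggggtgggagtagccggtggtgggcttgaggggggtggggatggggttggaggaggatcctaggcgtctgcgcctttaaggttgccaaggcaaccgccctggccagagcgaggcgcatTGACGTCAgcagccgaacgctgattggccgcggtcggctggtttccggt

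Rapgef3 encodes Epac1, the cAMP sensor that activates the small G protein Rap apart from PKA, and it was the one gene of the machinery that fell in all 3 comparisons. Its values were 6.19, 6.28, 6.30 and 6.36 in untreated cells, 5.91, 6.10 and 6.04 with LPS, and 5.51, 5.62, 5.70 and 5.40 with LPS plus PGE. The 3 groups followed each other downwards with no overlap. Against untreated, Rapgef3 fell by 0.27 with LPS (limma, SE 0.08, adjusted p = 0.0472) and by 0.73 with LPS plus PGE (SE 0.07, adjusted p = 1.51e-05). Against LPS, it fell by 0.46 with LPS plus PGE (SE 0.08, adjusted p = 0.00263).

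These falls rest on 1 of the gene's 2 probe sets. The other, dimmer one had means of 4.24, 4.15 and 4.38. With LPS plus PGE it changed by 0.23 against LPS (limma, adjusted p = 0.131) and by 0.14 against untreated (adjusted p = 0.304), both of the opposite sign. Over the mean of both probe sets the fall against LPS was 0.12 in size and did not pass (adjusted p = 0.295), while that against untreated was 0.30 and did (adjusted p = 0.0094). The fall with LPS alone lost its call under 16 of 22 alternatives, among them all 3 other normalizations (-0.15 to -0.23) and without untreated replicate 2, 3 or 4, any LPS array, or LPS plus PGE replicate 1 or 2 (-0.22 to -0.31). In the level band of Rapgef3, the median change against LPS was -0.22 and 35.3% of genes fell. Its promoter window held 1 half-site, from base -191, shown in capitals in the 250 bases before the start at chr15:97767667-97767916 (minus strand, printed in the gene's direction) because the brighter probe set of this gene was called downwards in all 3 comparisons:
Rapgef3: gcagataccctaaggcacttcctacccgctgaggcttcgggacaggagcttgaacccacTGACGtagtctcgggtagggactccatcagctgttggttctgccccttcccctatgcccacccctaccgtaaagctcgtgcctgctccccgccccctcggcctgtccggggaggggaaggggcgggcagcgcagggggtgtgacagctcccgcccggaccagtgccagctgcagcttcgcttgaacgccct

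**Figure D2:**
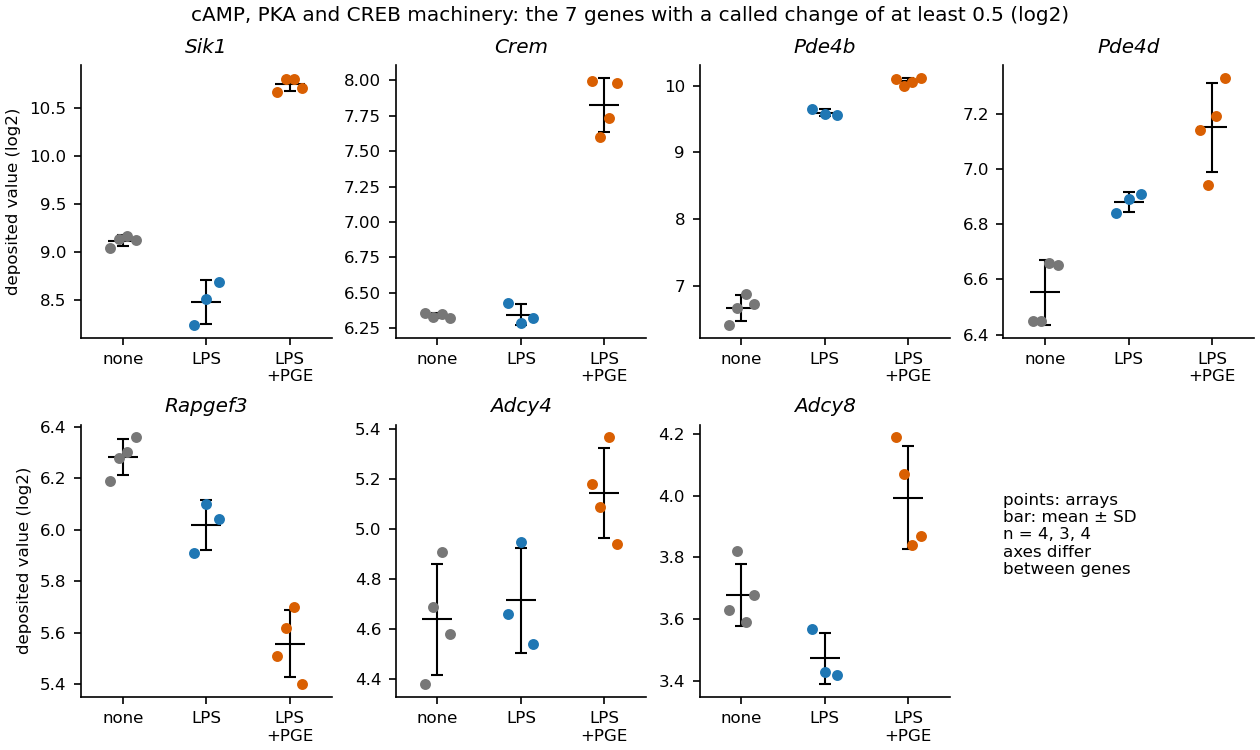
Deposited log2 value (y axis, scaled separately for each gene) in each array of the 3 groups (x axis) for the 7 genes with a called change of at least 0.5; points are arrays and the bars are the mean ± SD. Sik1 and Crem separate the LPS plus PGE arrays from the others, Pde4b separates both treated groups from untreated cells, and Rapgef3 steps down.

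The phosphodiesterases, which break down cAMP, had 9 genes measured. Of these 2 passed in LPS against untreated, 6 in LPS plus PGE against untreated and 5 in LPS plus PGE against LPS, beside 13.2%, 31.7% and 24.7% of all genes. Under cyclic loess the calls for Pde3a, Pde4a and Pde4c against LPS were lost, as were those for Pde3a and Pde4c against untreated, while Pde4d and Pde7b passed against LPS and Pde8a against untreated. All 4 Pde4 genes, which encode enzymes specific for cAMP, were measured, and they moved differently from each other. Pde4b was called upwards in all 3 comparisons. Pde4a was called once, downwards against LPS, by -0.26 in a level band with a median change of -0.22.

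Pde4b is the Pde4 gene known to be induced by LPS in monocytes and macrophages. Its values were 6.41, 6.66, 6.88 and 6.73 in untreated cells, 9.65, 9.58 and 9.56 with LPS, and 10.10, 9.99, 10.06 and 10.11 with LPS plus PGE. Every treated array was far above the untreated ones, and the LPS plus PGE arrays lay above the LPS arrays. LPS raised it by 2.93 ± 0.09, a 7.60-fold change (limma, adjusted p = 4.27e-10), and LPS plus PGE by 3.39 ± 0.09, or 10.5-fold (adjusted p = 2.84e-11). The step from LPS to LPS plus PGE was 0.47 ± 0.09, or 1.38-fold (adjusted p = 0.00523). Of 4 Pde4b windows, 1 held a half-site, from base -34, and its 250 bases before the start at chr4:102421305-102421554 (plus strand) are shown because this gene had the largest change of the machinery with LPS; the half-site is in capitals:
Pde4b: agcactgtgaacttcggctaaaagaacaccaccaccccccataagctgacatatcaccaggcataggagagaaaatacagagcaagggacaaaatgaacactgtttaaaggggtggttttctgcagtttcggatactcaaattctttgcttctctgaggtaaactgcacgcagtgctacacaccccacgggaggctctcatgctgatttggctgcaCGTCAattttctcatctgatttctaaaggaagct

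Which of these starts was used in the cells was not measured. The 3 windows shown were chosen after the values were seen.

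Pde4d had values of 6.45, 6.45, 6.66 and 6.65 in untreated cells, 6.84, 6.89 and 6.91 with LPS, and 7.14, 6.94, 7.19 and 7.33 with LPS plus PGE. The groups rose in that order with no overlap. The rise was 0.33 ± 0.09 with LPS (limma, adjusted p = 0.0337) and 0.60 ± 0.09 with LPS plus PGE (adjusted p = 0.000224), and the step of 0.27 ± 0.09 between the treated groups did not pass (adjusted p = 0.0505).

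A second Pde4d probe set, dimmer and matched to another transcript accession, had means of 3.09, 3.25 and 4.65. It changed by 1.57 ± 0.15 in LPS plus PGE against untreated (limma, adjusted p = 7.63e-06) and by 1.41 ± 0.16 against LPS (adjusted p = 0.000174), but by 0.16 in LPS against untreated (adjusted p = 0.573). Over the mean of both probe sets Pde4d rose by 0.84 in LPS plus PGE against LPS (adjusted p = 0.0005), and LPS alone no longer passed. The call for LPS alone was lost under 8 of 22 alternatives, among them without untreated replicate 1 or 2 or any LPS array (0.30 to 0.35). The step between the treated groups passed under 6, among them cyclic loess (0.38) and without LPS plus PGE replicate 2 (0.34).

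The other phosphodiesterases changed by less. Pde4a, another cAMP-specific enzyme, had means of 6.90, 7.01 and 6.76, and fell by 0.26 against LPS (SE 0.07, limma, adjusted p = 0.0199). This call was lost under cyclic loess (-0.14) and quantile normalization (-0.13), and without LPS replicate 3 (-0.23). In the level band of Pde4a 35.3% of genes fell against LPS, and less the band's median its change was -0.03. Pde4c had 4.67, 4.52 and 4.90 and rose against LPS by 0.37 ± 0.09 (adjusted p = 0.0103) and against untreated by 0.23 ± 0.08 (adjusted p = 0.0488), the latter lost under 11 of 21 alternatives, among them without untreated replicate 1 or 3, LPS replicate 3, or LPS plus PGE replicate 1, 2 or 3 (0.18 to 0.23). The level band of Pde4c had a median change of 0.05 against LPS, and under cyclic loess that call was lost too (0.24, adjusted p = 0.1).

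Pde3a and Pde3b encode enzymes that cGMP inhibits. Pde3b had 7.32 ± 0.11, 7.29 ± 0.08 and 7.58 ± 0.11 (SD), and rose by 0.29 ± 0.08 against LPS (limma, adjusted p = 0.0238) and by 0.26 ± 0.07 against untreated (adjusted p = 0.0192). Its level band had a median change of -0.16 against LPS, and under cyclic loess its rise was 0.42 (adjusted p = 0.0084). The call against LPS was lost without LPS replicate 3 or LPS plus PGE replicate 1 or 4 (0.24 to 0.26), and that against untreated without untreated replicate 2 or 3 or LPS plus PGE replicate 1 or 4 (0.23 to 0.24). Pde3a, a dim gene at 3.94, 3.86 and 4.22, rose by 0.36 ± 0.08 against LPS (adjusted p = 0.011), in a band with a median change of 0.19, and this call was lost under cyclic loess (0.22, adjusted p = 0.11) and quantile normalization (0.23). Against untreated its rise was 0.27 ± 0.08 (adjusted p = 0.0199), lost under both normalizations and without LPS plus PGE replicate 1 or 3 or untreated replicate 2 (0.24 to 0.26).

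Pde7b, which encodes an enzyme specific for cAMP, rose in LPS plus PGE against untreated by 0.26 ± 0.07 (limma, adjusted p = 0.00943), from 8.77 through 8.90 with LPS to 9.03, and did not pass against LPS. Its relative Pde7a was 7.94, 8.14 and 7.96 and did not pass as deposited, with a change of -0.18 (-0.35 to -0.01) against LPS. With equal array medians Pde7a (0.31, limma, adjusted p = 0.0211) and Pde7b (0.25, adjusted p = 0.042) rose in LPS against untreated. Pde8a, a high-affinity cAMP enzyme, was 9.25, 9.31 and 9.36 and did not pass as deposited.

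Of the CREB family, Crem changed and its relatives hardly did. Crem encodes activators and, from an internal promoter that cAMP induces, the ICER repressors, and the probe set does not tell them apart. Its values were 6.36, 6.33, 6.35 and 6.32 in untreated cells, 6.43, 6.29 and 6.32 with LPS, and 7.99, 7.60, 7.73 and 7.98 with LPS plus PGE. The untreated and LPS arrays were intermingled, and all LPS plus PGE arrays lay above both. The change with LPS was 0.00 ± 0.09 (95% interval -0.20 to 0.20), and the change in LPS plus PGE against LPS was 1.48 ± 0.09, or 2.79-fold (limma, adjusted p = 1.51e-06).

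Creb1, the founding member of the family, was 9.49 ± 0.05, 9.61 ± 0.03 and 9.69 ± 0.07 (SD) and rose in LPS plus PGE against untreated by 0.20 ± 0.06, or 1.15-fold (limma, adjusted p = 0.0167). It did not pass against LPS, where the change was 0.08 (-0.05 to 0.21). Atf1, a close relative that binds the same element, was 8.65, 8.47 and 8.59 and did not pass in any comparison.

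The co-activators changed by 0.34 or less in size. Ep300, which encodes the acetyltransferase p300, had means of 10.59, 10.54 and 10.30 and fell with LPS plus PGE by 0.29 (SE 0.07, limma, adjusted p = 0.00927) against untreated and by 0.25 (SE 0.08, adjusted p = 0.0379) against LPS. The latter call was lost under 11 of 22 alternatives, among them without any 1 of the LPS arrays or LPS plus PGE replicate 1, 3 or 4 (-0.21 to -0.26), and under cyclic loess both were lost (-0.20 and -0.19). Its paralogue Crebbp, encoding CBP, was 10.68, 10.78 and 10.67 and did not pass, at -0.11 (-0.27 to 0.04) against LPS.

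The CRTC proteins enter the nucleus and bind CREB when salt-inducible kinases are inhibited. Crtc1 was 8.37 ± 0.13, 8.26 ± 0.13 and 8.03 ± 0.10 (SD), and fell in LPS plus PGE against untreated by 0.34 (SE 0.08, limma, adjusted p = 0.00901), a call lost under cyclic loess (-0.19). Against LPS its change of -0.23 had an adjusted p of 0.0834 (limma). It passed there with trended and robust variance (adjusted p = 0.0483) and without LPS replicate 1 (-0.30, adjusted p = 0.0493). The level band of Crtc1 had a median change of -0.15 against untreated and -0.16 against LPS. Crtc2, at 9.81, 9.97 and 9.91, and Crtc3, at 8.34, 8.45 and 8.48, did not pass, although Crtc2 in the LPS arrays lay above all untreated arrays (0.16, adjusted p = 0.0901). With equal array medians both rose in LPS and in LPS plus PGE against untreated (0.18 to 0.28), and under cyclic loess in the latter (0.21 and 0.28).

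Sik1 encodes the salt-inducible kinase that is itself a known target of CREB, and it had the largest change of the machinery in LPS plus PGE against LPS. Its values were 9.04, 9.14, 9.17 and 9.12 in untreated cells, 8.24, 8.51 and 8.69 with LPS, and 10.66, 10.80, 10.80 and 10.70 with LPS plus PGE. LPS arrays were lowest, LPS plus PGE arrays highest, and no groups overlapped. LPS lowered Sik1, which fell by 0.64 on the log2 scale (SE 0.09, 1.56-fold, limma, adjusted p = 0.000547). LPS plus PGE raised it by 1.62 ± 0.09 over untreated, or 3.08-fold (adjusted p = 3.75e-08), and by 2.26 ± 0.09 over LPS, or 4.80-fold (adjusted p = 2.69e-08).

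The directions of LPS and of LPS plus PGE for Sik1 were thus opposite relative to untreated cells, and all 3 calls held under the 22 alternatives. Sik3, its relative, was 8.99, 9.13 and 9.01, and its changes of 0.15, 0.02 and -0.13 did not pass, but the first did with equal array medians (0.26, adjusted p = 0.0229).

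The level of a gene moved with its change in both comparisons of LPS plus PGE. Of all genes below the median mean level of 5.92, 19.5% rose and 2.76% fell against LPS, with a median change of 0.14; of those above it 4.28% rose and 23% fell, with a median of -0.11. In the machinery, 5 of 8 genes below that level rose against LPS and 0 fell, and of 26 above it 4 rose and 3 fell. Of the 5 dim ones, Adcy4, Adcy5, Pde3a and Pde4c lost the call under cyclic loess, which evens out differences that follow level, and Adcy8 kept it. Pde4b, Crem, Sik1 and Pde3b, above the median, kept theirs, at 0.59, 1.59, 2.36 and 0.42. No such shift appeared with LPS alone, where the medians of the 10 bands ran from -0.05 to 0.01.

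**Figure D3:**
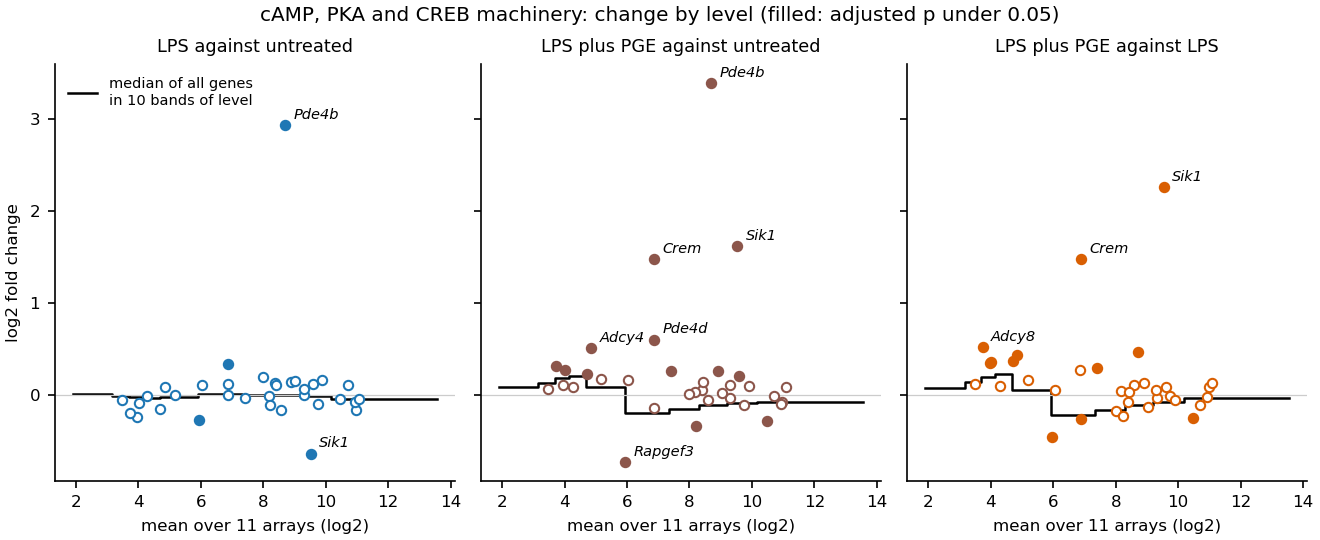
Log2 fold change (y axis) against the mean over 11 arrays (x axis) for the 34 genes, one panel per comparison; filled points passed at an adjusted p under 0.05, names mark called changes of at least 0.5 in size, and the black line is the median change of all genes in each of 10 bands of level. The line lies near 0 for LPS and runs from 0.23 in the fourth band to -0.22 in the sixth for LPS plus PGE against LPS; Sik1 and Crem lie far above it.

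Genes around the machinery were taken from 7 lists, with at most 2 genes named from each. Their counts stand beside 13.2% of all genes called with LPS, 31.7% with LPS plus PGE against untreated and 24.7% against LPS. Of the receptors that couple to the stimulatory G protein, 11 of 15 were measured, and 1 rose and 1 fell with LPS, 3 rose and 3 fell with LPS plus PGE against untreated, and 2 rose and 2 fell against LPS. Under cyclic loess or quantile normalization the last 2 pairs of counts were 2 and 1, and 1 and 1. Gpr65, a proton-sensing receptor, was 9.34, 9.61 and 10.73 and rose by 1.12 ± 0.09 against LPS (limma, adjusted p = 6.56e-06). Ptger4, the EP4 receptor for prostaglandin E, was 8.30, 10.23 and 9.62: it rose by 1.93 ± 0.09 with LPS (adjusted p = 1.93e-08) and was lower by 0.60 in LPS plus PGE than in LPS, a change of -0.60 ± 0.09 (adjusted p = 0.00116).

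Of 13 inhibitory and other G protein subunit genes 1 rose and 1 fell with LPS, 1 rose and 2 fell with LPS plus PGE against untreated, and 0 passed against LPS. Under cyclic loess 1 of these rose with LPS and 1 fell with LPS plus PGE against untreated. Of 18 genes for PKA anchors and inhibitors 1 fell with LPS, 2 rose and 5 fell with LPS plus PGE against untreated, and 1 rose and 3 fell against LPS (1 and 1 under cyclic loess, 1 and 5 with equal array medians). As deposited these calls were 5.56%, 38.9% and 22.2% of the list, beside 13.2%, 31.7% and 24.7% of all genes. With equal array medians 3 of the 18 rose and 0 fell with LPS. Against untreated 0 rose and 1 fell with LPS plus PGE under cyclic loess, 3 and 3 with equal array medians, and 2 and 3 with quantile normalization. In LPS plus PGE against LPS the anchor gene Akap12 rose by 0.47 ± 0.10 (limma, adjusted p = 0.00703). Akap10, another anchor, changed there by -0.37 ± 0.07 (adjusted p = 0.00544). Of 15 other phosphodiesterase genes 1 fell with LPS, 0 passed with LPS plus PGE against untreated, and 2 rose and 1 fell against LPS. With equal array medians 3 of them rose in LPS plus PGE against untreated, and against LPS 1 rose and 2 fell. The 2 that rose in the deposited values, Pde9a (0.40 ± 0.07), specific for cGMP, and Pde6a (0.31 ± 0.10), known from rod cells, were dim, at 3.88 and 4.32 with LPS, and the call for Pde6a (adjusted p = 0.0471) was lost under 17 of 21 alternatives.

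Of 14 other CREB and ATF family genes 4 rose and 2 fell with LPS, 2 rose and 5 fell with LPS plus PGE against untreated, and 4 fell and 0 rose against LPS. Atf3, a stress-induced repressor, was 12.14, 12.61 and 11.74, with a change of -0.88 ± 0.10 against LPS (limma, adjusted p = 0.000143), and Creb3l4, a membrane-bound family member, changed by -0.45 ± 0.11 (adjusted p = 0.0164), lost under cyclic loess, quantile normalization and without LPS replicate 3. As deposited, 42.9%, 50% and 28.6% of the 14 passed in the 3 comparisons, beside 13.2%, 31.7% and 24.7% of all genes. Under cyclic loess and quantile normalization 1 of the 14 fell against LPS. Of 13 genes for LKB1, calcineurin and class IIa histone deacetylases, which act on or under SIK and CRTC proteins, 0 passed with LPS, 1 rose and 2 fell with LPS plus PGE against untreated, and 1 rose against LPS. That gene was Hdac5, at 0.35 ± 0.06 (limma, adjusted p = 0.00249). The other counts turned with the scaling: with LPS 2 rose with equal array medians and 2 fell with quantile normalization, and in LPS plus PGE against untreated 2 rose and 0 fell under cyclic loess, 1 and 0 with equal array medians, and 1 and 1 with quantile normalization.

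Of 17 known targets of cAMP and CREB, 10 rose and 1 fell with LPS, 13 rose with LPS plus PGE against untreated, and 14 rose and 0 fell against LPS. Of all genes 6.55%, 13.8% and 11.9% rose in these 3 comparisons. This list was chosen with earlier results of these data known, so its counts are not an independent test. Under the 3 other normalizations 12 to 13 of the 17 targets rose and 0 fell against LPS. Their median changes as deposited were 0.46, 2.98 and 1.47. The largest against LPS were those of the nuclear receptor genes Nr4a2, at 6.05, 6.51 and 10.95 (4.44 ± 0.09, limma, adjusted p = 1.86e-10), and Nr4a3, at 3.93, 6.56 and 10.53 (3.97 ± 0.12, adjusted p = 1.68e-09). Among the genes of the machinery itself the largest change in that comparison was 2.26, that of Sik1, and 22 of 34 did not pass.

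**Figure D4:**
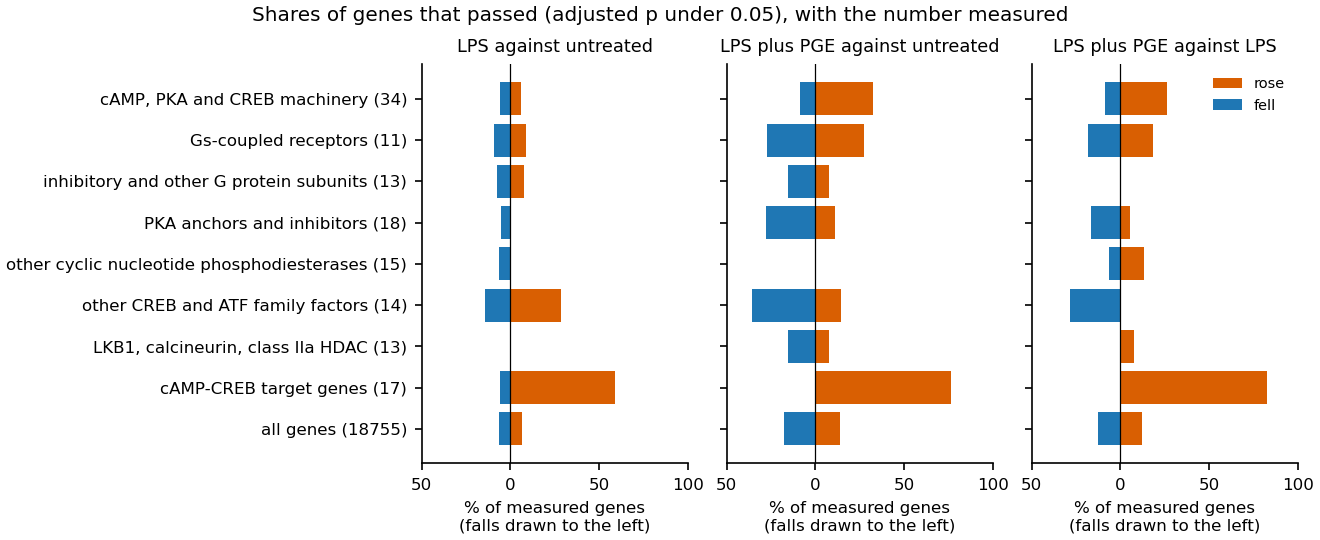
Percentage of the measured genes (x axis; rises to the right, falls to the left of 0) that passed at an adjusted p under 0.05 in the machinery, in 7 lists of genes around it and in all 18755 genes (y axis, with the number measured). The targets of cAMP and CREB have the longest bars to the right in each comparison, with 14 of 17 up in LPS plus PGE against LPS, beside 9 of 34 genes of the machinery. All lists were chosen with earlier results of these data known.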

How the data were processed

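RNA (250 ng per sample) was measured on Affymetrix mouse gene arrays. The authors made 12 and dropped 1 LPS array for quality. The authors deposited log2 values, a scale inferred from RMA, named per the submitters' processing notes, and from their range, 1.20 to 13.81. Partek, R 2.13.1 and Affymetrix Power Tools appear in the same notes. Raw files were not used here, and the sources used here give no build for the array annotation. The array medians over the 18755 genes tested ran from 5.79 to 6.01. The equal-median scaling used the medians over all 35309 probe sets instead, which are not given here. RMA usually evens out arrays, so a change shared by all genes may not show.

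Of 35309 probe sets, 21143 had 1 symbol, 1870 several and 12296 none; 18755 genes were tested. A group-means model was fitted with limma 3.58.1 (R 4.3.3) to the 11 arrays (8 residual and 3.77 prior degrees of freedom), two-sided, with Benjamini-Hochberg adjustment over all genes; a gene passed under 0.05. Figures used matplotlib 3.10.9. The fit was tested on simulated arrays with independent noise, which held no shift by level and no difference in array scaling. Replicate numbers are not said to pair arrays, so the fit was unpaired.

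The 38 genes, the lists of genes around them and the marker lists were chosen with earlier results of these data known, and some listed genes had been seen to change. All 38 genes are named; values in every array are given for those that passed with a change of at least 0.5, and of each list around them at most the 2 largest called changes against LPS. Promoter windows were to be shown for genes with a called 2-fold change against LPS; other genes' windows are shown. Alternatives were quantile, equal-median and cyclic loess normalization, a trended robust variance, array weights, fits of 2 groups, leaving out dim genes, all probe sets or their mean, a replicate block, a threshold with a change of at least 0.5, and each array left out.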

Additional observations from a re-analysis of the deposited data

How the results depend on the processing

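The count of genes called in LPS against untreated (4) depended on the processing. It was 12 with equal array medians, and 2 with array weights, with probe sets averaged per gene and with a required change of at least 0.5. With 1 array left out it ran from 2 to 5, and it was 2 without untreated replicate 2 and without any 1 of the 3 LPS arrays; the cause was not tested. A required change of at least 0.5 left 6 of 14 genes in LPS plus PGE against untreated and 3 of 12 in LPS plus PGE against LPS, as it must remove smaller changes. Leaving out 1 array gave 11 to 14 and 8 to 12. In LPS against untreated, where neither passed, the change of Adcy4 ran from -0.04 to 0.17 and that of Crem from -0.04 to 0.03 with 1 array left out, so their signs turned (to -0.00 and -0.04 for both).

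With the replicate block, 4, 13 and 13 genes passed in the 3 comparisons; it added Crtc1 against LPS (-0.27, adjusted p = 0.0305, limma), lost Pde4c in LPS plus PGE against untreated (0.23, adjusted p = 0.0775) and changed no other call of the machinery. Deviations of same-numbered arrays correlated at -0.02 to 0.21 (10 pairs) and those of other pairs at -0.14 to 0.09; 11 of 11 arrays correlated best with their own number, a hint from the data and not the design. All calls for Sik1, both for Crem, those for Pde4b against untreated, and those for Rapgef3, Pde4d and Adcy4 in LPS plus PGE against untreated held under every alternative run. No alternative used the dimmer Rapgef3 probe set alone, whose change in that comparison was 0.14 (limma, adjusted p = 0.304). The call for Adcy8 in LPS plus PGE against LPS held under the 21 alternatives that gave a value for it. Leaving out genes below the median level gave no value for the 8 dim genes of the machinery. The files give no signal over background, which limits the dim genes.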
